A study of Mus musculus with 3 samples.

Results

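The genes described here encode the proteins of the mitochondrial ribosome. They were taken as every probe whose gene symbol is Mrpl or Mrps followed by a number, and where a gene had several probes, the one with the highest mean log2 intensity over the arrays stood for it. This gave 71 genes (80 of 26423 probes) out of 19084 named genes. Of these, 47 encode large subunit proteins and 23 small subunit proteins. Mrps18a and Mrps30 are counted with the large subunit, in which their proteins sit. The remaining gene, Mrps36, was once assigned to the small subunit, and its protein is now known as a component of the 2-oxoglutarate dehydrogenase complex. A further 7 subunit genes of these families were not analysed here.

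The mitochondrial ribosome, or mitoribosome, sits in the matrix at the inner membrane and translates the few messenger RNAs of mitochondrial DNA, which encode core subunits of the respiratory chain and ATP synthase. All of its proteins are encoded in the nucleus, made on cytosolic ribosomes and imported. About its core of proteins with bacterial homologs lie many that only mitochondria have. Hepatocytes are rich in mitochondria, and dividing cells have to make new mitoribosomes to keep their number.

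RNA from 3 sources was hybridized, on 1 array each, to a mouse whole-genome oligonucleotide array (OneArray) and read in the single colour Cy5. Ymac-1 is a cell line grown in DMEM that the authors derived by collagenase and trypsin digestion from a liver tumor of an aged Gnmt-/- mouse and passaged for a long time. The HCC array holds liver tumor tissue of a female Gnmt-/- mouse, which lacks glycine N-methyltransferase and develops hepatocellular carcinoma spontaneously. The normal liver array holds liver tissue of a female wild type mouse. No treatment is given in the labels for any of them, nor the age of the mice whose tissue was hybridized. The sources used here do not say whether Ymac-1 came from the tumor on the HCC array. The study describes comparing Ymac-1 with microarray data on wild type liver and Gnmt-/- tumor from earlier work. Whether the 3 arrays were run together was not known here, and a batch difference could not be told apart from the conditions. Ymac-1 is a single line, and HCC and normal liver are tissues that also hold endothelial, stellate and immune cells. Since each condition has 1 array, no difference could be checked against replicates, no P value is given, and precision is limited by the array number throughout.

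Values are background-subtracted linear intensities. Before taking log2, readings under 50 were raised to 50, here called the floor, and a gene was called higher or lower when its log2 difference was 1 or more in size, the ratio used in the study's methods. Where one reading was not above the floor, the fold is given as a minimum. The median probe read 27.6 in Ymac-1, 38.5 in HCC and 15.8 in normal liver, so the tissue arrays differed in overall brightness. For the 7687 genes that exceeded the floor on all 3 arrays, log2 differences had a median of 0.06 in Ymac-1 minus HCC, of 0.65 in HCC minus normal liver and of 0.72 in Ymac-1 minus normal liver. Gnmt, the disrupted gene, read 56.1 in Ymac-1, 15.6 in HCC and 3583 in normal liver. The position of its probe relative to the deletion was not known here.

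Most mitoribosomal genes were well measured, with 65 of 71 above the floor in Ymac-1, 67 in HCC and 64 in normal liver. The median intensity over the 71 genes was 2481 in Ymac-1, 1098 in HCC and 962 in normal liver. Mrpl21, Mrpl45, Mrps25 and Mrps33 lay under the floor on all 3 arrays, and their probes say nothing about a difference. Mrpl45 encodes the protein by which the large subunit attaches to the inner membrane. Its probe read 16.9 in Ymac-1, 5.96 in HCC and 2.49 in normal liver. Levels of different genes come from different probes and were not set against each other.

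**Figure D1:**
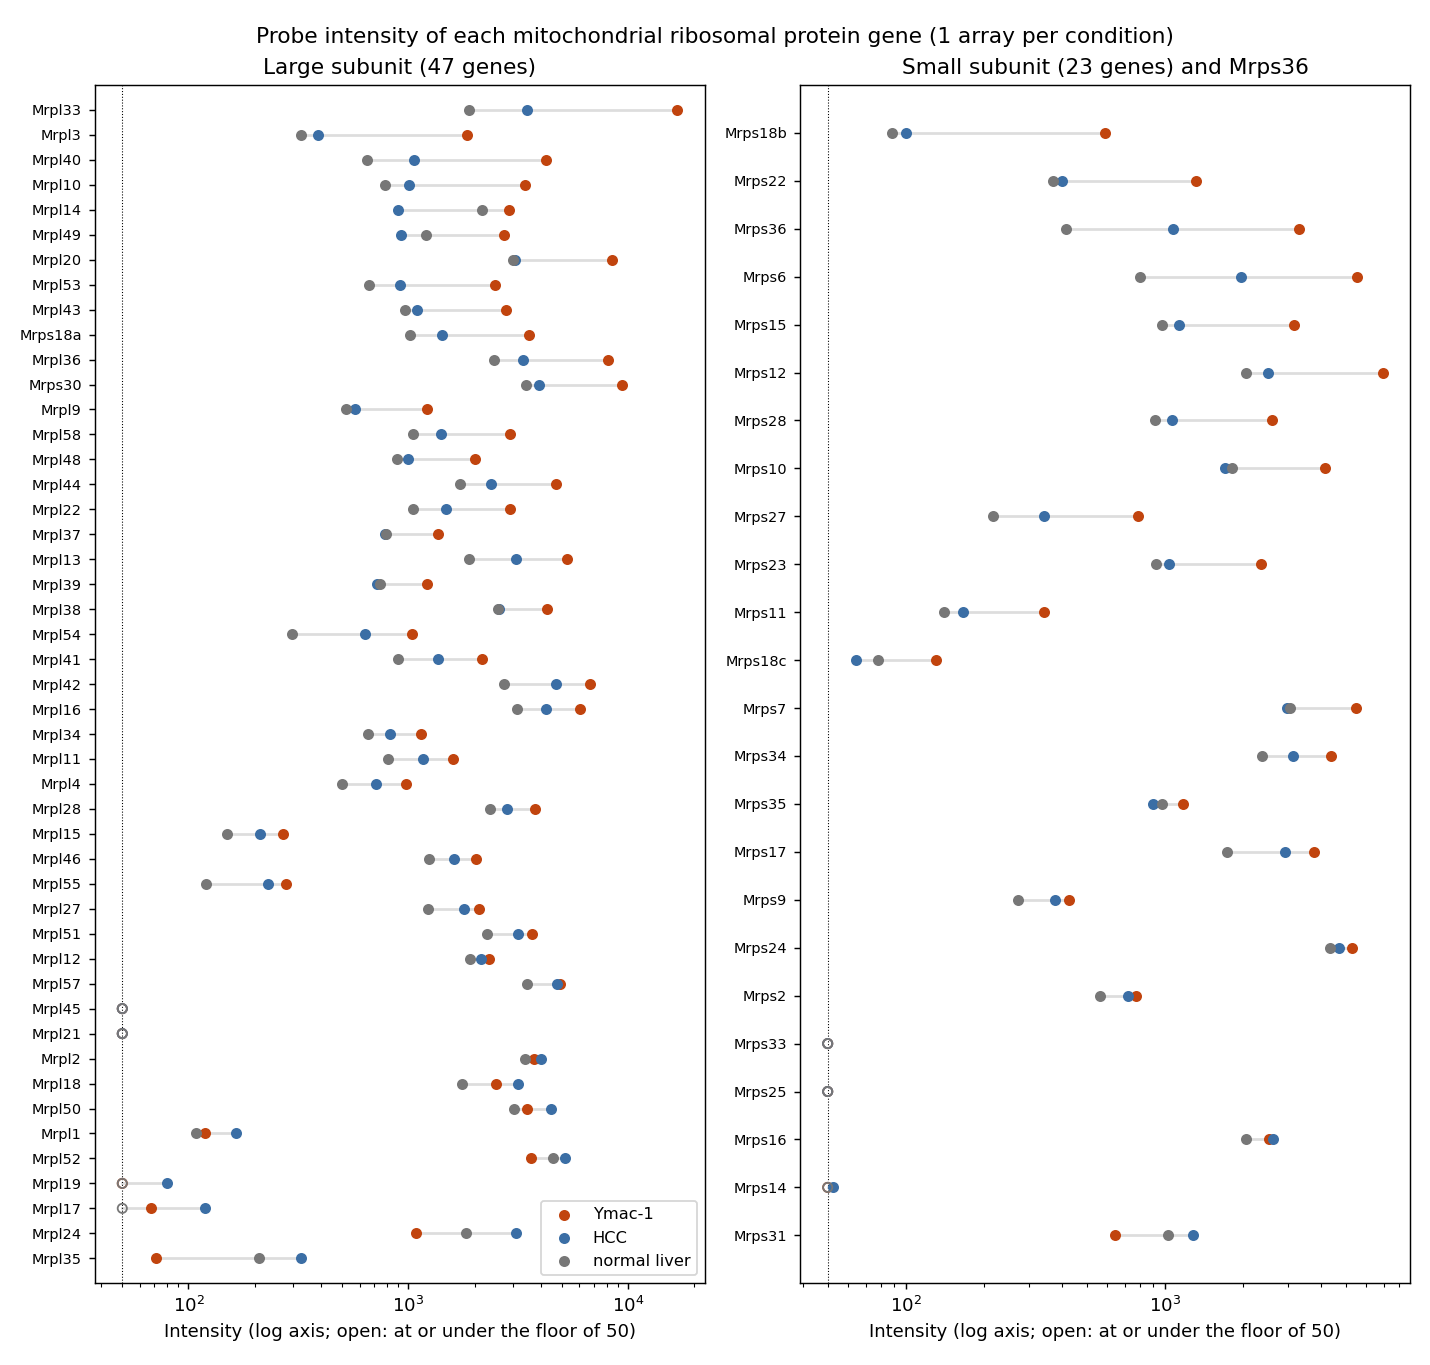
Intensity (log axis) of each mitoribosomal gene in Ymac-1, HCC and normal liver, 1 point per array, with open circles for readings at or under the floor of 50, which overlap where several arrays lie there. Within each panel, genes run from the largest difference, Mrpl33 and Mrps18b, at the top to Mrpl35 and Mrps31 at the bottom, and in most rows the Ymac-1 point lies to the right.

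The cell line was compared with the tumor tissue first. In Ymac-1, 27 of 71 mitoribosomal genes (38.0%) were higher than in HCC and 3 (4.23%) were lower. Over all 19084 genes these shares were 14.7% and 15.9%, and over the 8778 genes above the floor on both arrays they were 26.1% and 20.3%. The median log2 difference of the 71 genes was 0.66 (quartiles 0.11 and 1.28), against 0.00 over all genes. In all, 55 of the 71 read brighter in Ymac-1 than in HCC, 12 dimmer, and 4 lay at the floor on both arrays. Genes of both subunits were among them, with 15 of 47 large subunit genes and 11 of 23 small subunit genes higher. The small subunit median was 0.89 and the large subunit median 0.52, a difference that was not tested. Hepatocyte markers were lower in Ymac-1 and 3 of 4 proliferation markers higher in the same comparison, with summed intensities given after the subunits, and their part in these counts was not tested.

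Mrps18b had the largest difference. It encodes one of a family of small proteins related to bacterial S18 and read 587 in Ymac-1, 100.5 in HCC and 88.2 in normal liver, 5.84-fold above HCC in Ymac-1. Its readings in both tissues were not far above the floor. Mrpl33, a small protein gene of the large subunit, read 16722 in Ymac-1, 3478 in HCC and 1893 in normal liver. Its step from HCC was 4.81-fold. Mrpl3, whose protein reaches toward the site of peptide bond formation, read 1839 in Ymac-1, 388 in HCC and 324 in normal liver (4.74-fold). In these 3 genes the cell line lay far above both tissues, which for Mrps18b and Mrpl3 were close to each other as deposited.

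Mrpl40, of a mitochondria-specific protein, read 4228 in Ymac-1, 1065 in HCC and 645 in normal liver (3.97-fold over HCC). Mrpl10, which anchors the stalk that recruits translation factors, read 3376 in Ymac-1, 1002 in HCC and 782 in normal liver (3.37-fold). Mrps22, a small subunit gene mutated in human mitochondrial disease, read 1322 in Ymac-1, 402 in HCC and 371 in normal liver (3.29-fold). As deposited, these 6 genes together had the largest log2 differences, from 1.72 to 2.55, and none of them reached 1 between HCC and normal liver. With array medians made equal, Mrps18b, Mrpl3 and Mrps22 were lower in HCC than in normal liver, at -1.09, -1.02 and -1.17.

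On the other side stood Mrpl35, Mrpl24 and Mrps31. Mrpl35, a bacterial-type large subunit gene, read 70.9 in Ymac-1, 325 in HCC and 209 in normal liver, 4.57-fold below HCC and 2.95-fold below normal liver in Ymac-1. Its Ymac-1 reading lay near the floor. Mrpl24, whose protein lines the exit of the peptide tunnel, read 1080 in Ymac-1, 3071 in HCC and 1833 in normal liver (2.84-fold lower than in HCC). Mrps31, a mitochondria-specific small subunit gene, read 642 in Ymac-1, 1289 in HCC and 1033 in normal liver (2.01-fold lower than in HCC). All 3 were dimmest in the cell line and, as deposited, brightest in HCC. With array medians made equal, all 3 were brightest in normal liver. The next lowest were Mrpl17, Mrpl52 and Mrpl1, at log2 differences of -0.81, -0.51 and -0.47, inside the threshold, and with array medians made equal Mrpl1 turned to 0.01. Mrpl17 read 67.8 in Ymac-1 and 119 in HCC, near the floor.

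The promoters of the 3 genes with the largest differences, of Mrpl35 as the gene furthest the other way and of Mrpl52 as one with repeated motif matches and no call, are shown from RefSeq (GRCm38.p6), from 200 bases before the annotated start to 30 bases after it. Capitals mark complete matches to the ETS core on either strand (CGGAAG, or CTTCCG in reverse), the letters of the site bound by GABPA, a factor known to drive nuclear genes for mitochondria. The list of RefSeq promoters matched 62 of the 71 genes. Mrps18b (chr17:35916411-35916640, minus strand) has 2 matches within the printed stretch, Mrpl33 (chr5:31613751-31613980, plus strand) and Mrpl3 (chr9:105053068-105053297, plus strand) have 1 each, Mrpl35 (chr6:71823755-71823984, minus strand) has none and Mrpl52 (chr14:54426709-54426938, plus strand) has 3.
Mrps18b: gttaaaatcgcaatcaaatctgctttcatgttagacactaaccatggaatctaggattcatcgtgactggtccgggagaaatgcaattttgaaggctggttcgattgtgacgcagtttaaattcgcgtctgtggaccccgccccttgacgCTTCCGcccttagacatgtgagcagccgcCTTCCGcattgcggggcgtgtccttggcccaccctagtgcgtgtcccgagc
Mrpl33: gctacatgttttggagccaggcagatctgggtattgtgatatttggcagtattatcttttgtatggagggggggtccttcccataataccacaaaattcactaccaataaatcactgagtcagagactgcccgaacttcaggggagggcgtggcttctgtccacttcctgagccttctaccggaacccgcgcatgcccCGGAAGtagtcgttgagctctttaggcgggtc
Mrpl3: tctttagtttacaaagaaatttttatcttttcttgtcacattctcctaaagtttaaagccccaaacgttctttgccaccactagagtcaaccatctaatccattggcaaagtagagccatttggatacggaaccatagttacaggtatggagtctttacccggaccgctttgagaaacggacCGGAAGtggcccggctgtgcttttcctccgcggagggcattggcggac
Mrpl35: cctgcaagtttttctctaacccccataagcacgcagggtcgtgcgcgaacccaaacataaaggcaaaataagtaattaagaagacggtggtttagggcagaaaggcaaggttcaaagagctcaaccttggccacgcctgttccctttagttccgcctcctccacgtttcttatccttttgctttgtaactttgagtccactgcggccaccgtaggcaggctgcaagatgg
Mrpl52: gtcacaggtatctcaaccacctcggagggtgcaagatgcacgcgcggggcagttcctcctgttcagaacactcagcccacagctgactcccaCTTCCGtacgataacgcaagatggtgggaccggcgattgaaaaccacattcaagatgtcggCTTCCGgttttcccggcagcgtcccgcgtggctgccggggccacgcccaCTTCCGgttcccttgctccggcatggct

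Exact matches were counted on both strands over the 300 bases from 250 before to 50 after the start, for all protein-coding genes in the table. The ETS core, CGGAAG, was in the promoters of 36 of 62 mitoribosomal genes (58.1%), against 23.5% of 17491 protein-coding genes. The core of NRF1, another factor of nuclear genes for mitochondria, was searched as GCGCA, any base, then GCGC, and found in 9 of 62 (14.5%), against 7.17%. The core of YY1, AAGATGGCG, whose first 3 letters can overlap the end of an ETS core, was in 8 of 62 (12.9%), against 2.14%. The E-box CACGTG, a site of Myc, was in 5 of 62 (8.06%), against 8.91%. In Mrpl35 the sole match is a YY1 core that starts 23 bases after the gene start and runs past the printed stretch.

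Among the genes higher in Ymac-1, 17 of 26 with a promoter (65.4%) held an ETS core, and among the others 19 of 36 (52.8%). For the NRF1 core the shares were 7.69% and 19.4%, for the YY1 core 15.4% and 11.1%, and for the E-box 11.5% and 5.56%. These differences were not tested, and a match is a description of letters and not of a bound site. On the arrays Gabpa read 773 in Ymac-1, 466 in HCC and 485 in normal liver. Gabpb1, its partner, read 464 in Ymac-1, 231 in HCC and 150 in normal liver. The probe named Nrf1 read 109 in Ymac-1 and lay under the floor in HCC and normal liver.

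**Figure D2:**
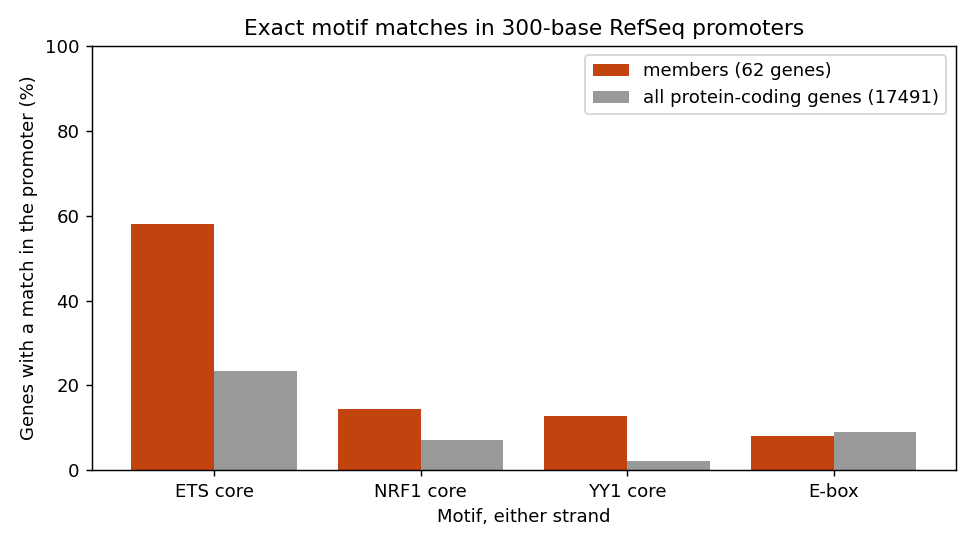
Share of genes (%) whose 300-base RefSeq promoter holds an exact match, on either strand, to each of 4 motifs, for the 62 mitoribosomal genes with a promoter in the table and for all 17491 protein-coding genes. The ETS core has the tallest bars, 58.1% of the mitoribosomal genes and 23.5% of all.

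By position in the ribosome, the large subunit proteins with bacterial homologs had 7 of 26 genes higher in Ymac-1 relative to HCC (26.9%) and 2 lower, with a median difference of 0.44. This share of higher genes lay close to the 26.1% of all genes above the floor on both arrays. Mrpl10, Mrpl11 and Mrpl12 form the stalk and its base. Mrpl12, which also binds the mitochondrial RNA polymerase, read 2326 in Ymac-1, 2147 in HCC and 1897 in normal liver, and Mrpl11 read 1602 in Ymac-1, 1166 in HCC and 812 in normal liver. Of the stalk genes only Mrpl10 passed the threshold. At the tunnel exit, Mrpl22 read 2905 in Ymac-1, 1476 in HCC and 1045 in normal liver, a log2 difference of 0.98 over HCC, whereas Mrpl24 was lower. Neighbours in the structure thus had unequal differences in these arrays.

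Mrpl20, whose bacterial homolog is needed to begin large subunit assembly, read 8466 in Ymac-1, 3055 in HCC and 2982 in normal liver. Mrpl36, of a very short protein that binds late in assembly in bacteria, read 8078 in Ymac-1, 3322 in HCC and 2456 in normal liver. Both were higher in Ymac-1 than in either tissue, by 2.77-fold and 2.43-fold over HCC. Mrpl9 read 1214 in Ymac-1, 573 in HCC and 518 in normal liver (2.12-fold over HCC). Mrpl2, of the protein that helps shape the peptidyl transferase center, read 3725 in Ymac-1, 4003 in HCC and 3400 in normal liver, within 0.24 on the log2 scale between any pair of arrays as deposited. The other members of this class above the floor in Ymac-1 and HCC, Mrpl4, Mrpl13, Mrpl15, Mrpl16, Mrpl27, Mrpl28, Mrpl34, Mrpl55 and Mrpl18, lay between -0.34 and 0.78. Mrpl19 read 28.7 in Ymac-1, 79.7 in HCC and 30.1 in normal liver, so that HCC alone was above the floor.

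The large subunit proteins that only mitochondria have, with 21 genes, gave 8 genes past the threshold upward in Ymac-1 against HCC and none downward, with a median of 0.76. That was 38.1% of the class, against 14.7% of all genes and 26.1% of those above the floor on both arrays. Over the 5 scalings the number ran from 6 to 15, the highest with array medians made equal. The share of all genes ran from 13.5% to 20.2%, also highest there. As deposited the 8 were Mrpl40, Mrpl43, Mrpl48, Mrpl49, Mrpl53, Mrpl58, Mrps18a and Mrps30. Mrpl58, a peptidyl-tRNA hydrolase built into the ribosome that frees stalled chains, read 2912 in Ymac-1, 1406 in HCC and 1050 in normal liver. Mrps30 read 9363 in Ymac-1, 3945 in HCC and 3410 in normal liver. Mrpl49 read 2721 in Ymac-1, 922 in HCC and 1197 in normal liver. The first 2 followed the order cell line, tumor, liver, and in Mrpl49 the tumor was the dimmest. Mrpl44, mutated in human cardiomyopathy, read 4715 in Ymac-1, 2377 in HCC and 1719 in normal liver, a log2 difference over HCC of 0.99 just inside the threshold, and Mrpl48, at 1.02, was just outside. The remaining genes of the class, Mrpl37, Mrpl38, Mrpl39, Mrpl41, Mrpl42, Mrpl46, Mrpl51, Mrpl54 and Mrpl57, lay between 0.04 and 0.81. Mrpl52 and Mrpl50 lay below 0, at -0.51 and -0.36, and with array medians made equal Mrpl50 turned to 0.12.

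In the small subunit, 7 of 14 genes with bacterial homologs were higher in the cell line relative to HCC and none was lower. The median of this class was 0.95. Of all genes 14.7% were higher, and of those above the floor on both arrays 26.1%. Over the 5 scalings the number higher in the class ran from 5 to 8, and the share of all genes from 13.5% to 20.2%. Mrps12, of the decoding center, read 6940 in Ymac-1, 2500 in HCC and 2066 in normal liver. Mrps15 read 3163 in Ymac-1, 1131 in HCC and 978 in normal liver, and Mrps28 read 2595 in Ymac-1, 1062 in HCC and 919 in normal liver. All 3 were between 2.44-fold and 2.80-fold higher in the cell line than in the tumor. Mrps16, mutated in human respiratory chain deficiency, read 2520 in Ymac-1, 2612 in HCC and 2059 in normal liver, and Mrps24 read 5301 in Ymac-1, 4700 in HCC and 4355 in normal liver. As deposited, these 2 stayed within 0.34 on the log2 scale in every comparison. Mrps11 read 343 in Ymac-1, 167 in HCC and 140 in normal liver, at 1.04 just past the threshold over HCC, while Mrps7, Mrps17, Mrps9 and Mrps2 lay between 0.10 and 0.89. Mrps14 read 22.6 in Ymac-1, 52.2 in HCC and 22.1 in normal liver, barely above the floor in HCC alone.

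The mitochondria-specific part of the small subunit had 4 of 9 genes higher in Ymac-1 against HCC (44.4%) and 1 lower, Mrps31. All genes gave 14.7% higher, and those above the floor on both arrays 26.1%. Beside Mrps18b and Mrps22, the higher genes of this part were Mrps23 and Mrps27. Mrps27, a pentatricopeptide repeat protein gene, read 788 in Ymac-1, 341 in HCC and 216 in normal liver, and Mrps23 read 2349 in Ymac-1, 1038 in HCC and 926 in normal liver. The 3 paralogs related to bacterial S18 all passed the threshold, each by its own margin. Mrps18a, of the large subunit, read 3532 in Ymac-1, 1428 in HCC and 1020 in normal liver (log2 difference 1.31), against 2.55 for Mrps18b. Mrps18c read 130 in Ymac-1, 64.3 in HCC and 78.2 in normal liver (1.02), not far above the floor. Mrps34 and Mrps35 were inside the threshold, at 0.48 and 0.39.

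**Figure D3:**
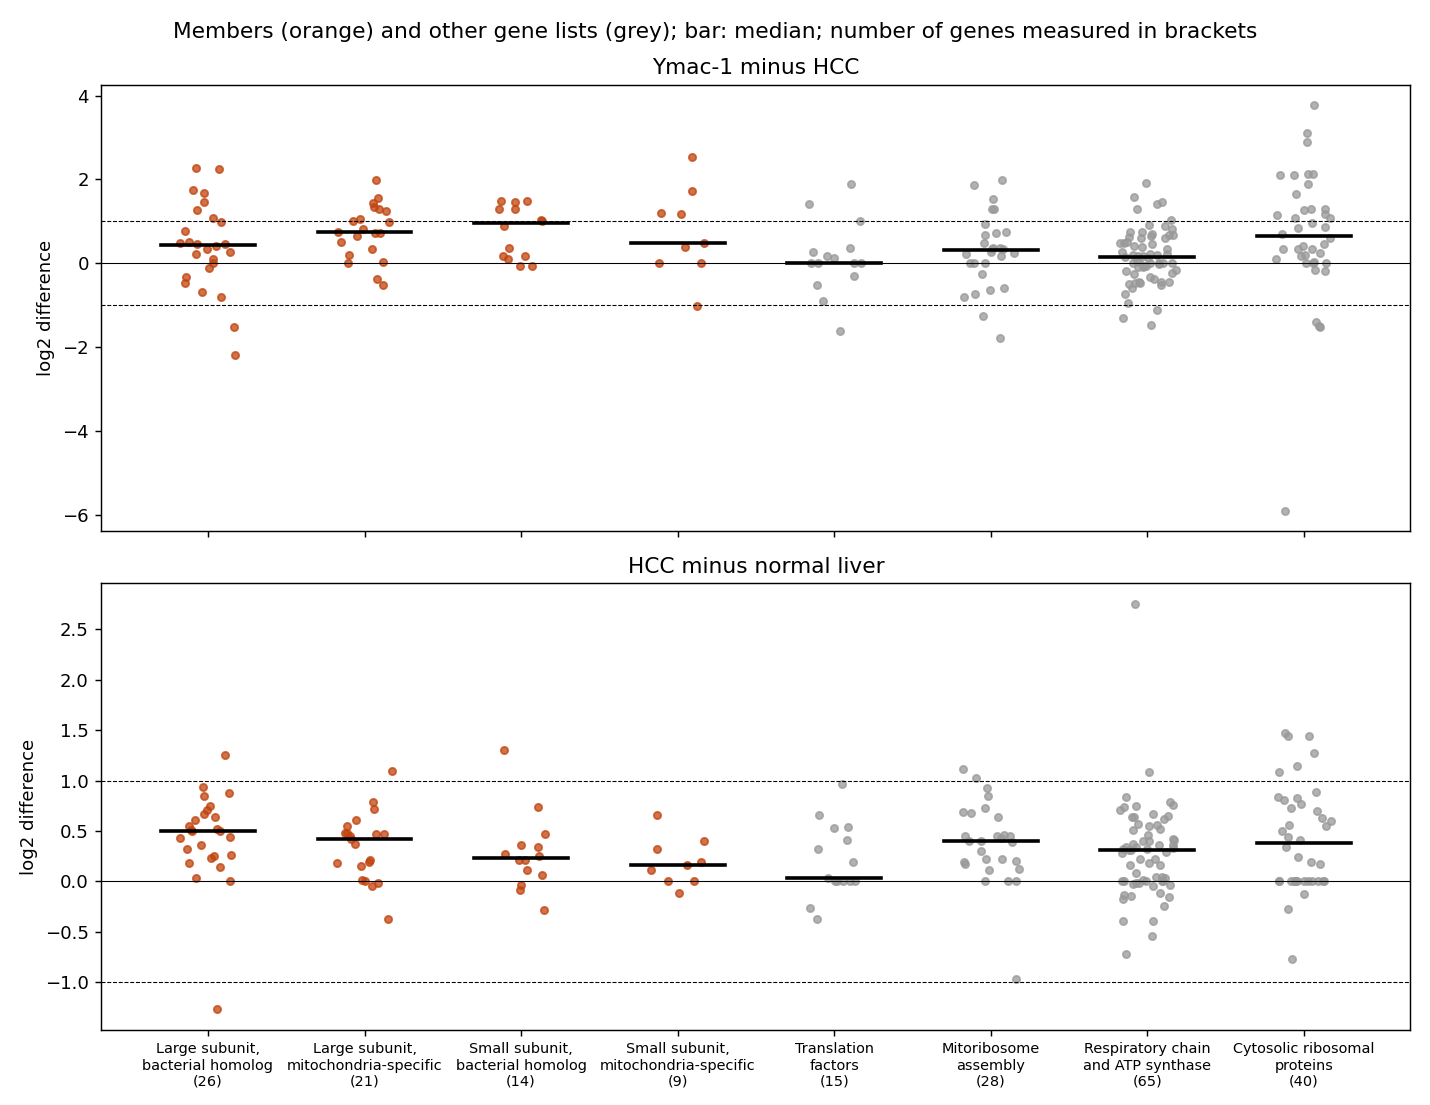
Log2 difference of each gene for Ymac-1 minus HCC (top) and HCC minus normal liver (bottom), by role, with mitoribosomal genes (Mrps36 left out) in orange, other lists in grey, a bar at each median and dashed lines at 1 and -1. The mitoribosomal medians lie between 0.44 and 0.95 in the upper panel and between 0.16 and 0.50 in the lower one as deposited, where other scalings turn the median of the 71 genes below 0.

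The cell makeup of the samples differed along with these values. Hepatocyte markers (9 of 9 lower in Ymac-1 against HCC) had a summed intensity of 3577 in Ymac-1, 276990 in HCC and 187580 in normal liver, and 5 of them, Alb, Ttr, Apoa1, Cps1 and Ahsg, lay under the floor in Ymac-1. Endothelial markers summed to 131 in Ymac-1, 8841 in HCC and 5925 in normal liver, with 6 of 6 lower in the cell line. For macrophage and Kupffer cell markers (5 of 5 lower) the sums were 857 in Ymac-1, 4656 in HCC and 2208 in normal liver, and for stellate cell and fibroblast markers (4 of 6 lower) 121 in Ymac-1, 30204 in HCC and 13998 in normal liver. The Dcn probe alone made up most of the tissue sums, at 90.7 in Ymac-1, 29180 in HCC and 13481 in normal liver, and Col1a1 lay under the floor on all arrays. Lymphocyte markers (2 of 4 lower) summed to 164 in Ymac-1, 599 in HCC and 294 in normal liver. Bile duct markers (3 of 4 higher, Epcam lower) summed to 14649 in Ymac-1, 684 in HCC and 159 in normal liver. Proliferation markers (3 of 4 higher) summed to 10124 in Ymac-1, 507 in HCC and 56.2 in normal liver. In bulk RNA fewer cells of a type and less RNA per cell cannot be told apart, and the part of these cell types and of proliferation in the mitoribosomal differences was not tested.

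Between tumor and normal liver the mitoribosomal genes differed less. As deposited, 4 of 71 (5.63%) were higher in HCC and 1 (1.41%) was lower, where all genes gave 15.9% and 0.749%. Among the 8782 genes above the floor on both arrays these shares were 26.1% and 1.32%. The median log2 difference was 0.36, smaller than the 0.65 of the genes measured above the floor throughout, and 14 of 71 lay above that value. The direction of the median depended on the scaling. It was -0.21 after quantile normalization, -0.38 with upper quartiles made equal, -0.86 with array medians made equal and -0.30 with the arrays scaled on the genes above the floor. Under each of these 4 scalings no mitoribosomal gene was higher in HCC. The number lower was 3 under 3 of them (4.23%, against 3.05% to 3.68% of all genes) and 27 with array medians made equal (38.0%, against 11.6%).

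Mrps36 and Mrps6 had the largest differences between the tissues as deposited. Mrps36 read 3306 in Ymac-1, 1073 in HCC and 415 in normal liver, with steps of 2.59-fold between HCC and normal liver and 3.08-fold between Ymac-1 and HCC. Mrps6, of the platform of the small subunit, read 5531 in Ymac-1, 1973 in HCC and 802 in normal liver, with steps of 2.46-fold and 2.80-fold. They were the only members higher at both steps, 2 of 71 (2.82%) against 3.67% of all genes, and no member was lower at both, against 0.383%. Quantile normalization left their tissue differences at 0.69 and 0.64, and making array medians equal left 0.09 and 0.02. Mrpl54, mitochondria-specific, read 1043 in Ymac-1, 635 in HCC and 297 in normal liver (2.14-fold between HCC and normal liver), and with array medians made equal its difference turned to -0.19. Mrpl17 read 119 in HCC and lay under the floor in normal liver, at least 2.38-fold higher. Mrpl55, Mrpl33 and Mrpl18 followed inside the threshold, at 0.94, 0.88 and 0.85, and turned to -0.34, -0.40 and -0.43 with array medians made equal.

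As deposited, Mrpl14 alone was called lower in HCC, against a median of 0.36 that turned below 0 under the other 4 scalings. Mrpl14 encodes a protein of the face of the large subunit that meets the small subunit. It read 2867 in Ymac-1, 897 in HCC and 2162 in normal liver. HCC lay 2.41-fold below normal liver and Ymac-1 lay 3.20-fold above HCC, and Mrpl14 was the one member lower in HCC under all 5 scalings. HCC was thus the dim array for this probe, while Ymac-1 and normal liver differed by 0.41. Mrpl49, Mrps18c, Mrps35, Mrps10 and Mrpl39 also read dimmer in HCC than in normal liver, by -0.38 to -0.05, inside the threshold as deposited. Under every other scaling Mrpl49 and Mrps18c were called lower in HCC, at -1.66 to -1.01 and -1.43 to -1.01. Mrps18c lay near the floor in both tissues. Mrps35, Mrps10 and Mrpl39 were called lower only with array medians made equal, at -1.40, -1.37 and -1.33. As deposited, another bright probe of Mrps10 went the other way, at 1862 in HCC and 1219 in normal liver (0.61).

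Set against normal liver, 33 of 71 mitoribosomal genes (46.5%) were higher in Ymac-1 and 1 (1.41%), Mrpl35, was lower. All genes gave 23.3% and 9.41%. Over the 7699 genes above the floor on both arrays 42.1% were higher, and of the mitoribosomal genes above it there 51.6%, and lower were 13.0% of those genes and 1.56% of the mitoribosomal genes. The median difference was 0.94, against 0.72 over all genes measured above the floor throughout, and 44 of 71 lay above that value. With array medians made equal, 11 were higher (15.5%, against 14.8% of all genes), and scaled on the genes above the floor also 11 (15.5%, against 14.2%), so that under both the share was near that of all genes. It was 22.5% against 16.1% after quantile normalization and 21.1% against 15.9% with upper quartiles made equal. As deposited, the largest were Mrpl33 (8.84-fold), Mrps36 (7.97-fold), Mrps6 (6.90-fold), Mrps18b (6.65-fold), Mrpl40 (6.55-fold) and Mrpl3 (5.68-fold). At the low end after Mrpl35, Mrpl24 lay at -0.76, Mrps31 at -0.69 and Mrpl52 at -0.33 on the log2 scale as deposited. Under the other 4 scalings Mrpl24 and Mrps31 were also called lower, at -1.42 to -1.56 and -1.35 to -1.49. Mrpl52 joined them at -1.13 with array medians made equal and when scaled on the genes above the floor. The share of the 71 genes lower under these scalings was 4.23% to 5.63%, against 13.9% to 16.2% of all genes. The comparisons with normal liver and with HCC share the Ymac-1 array and are not independent of each other.

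Higher in Ymac-1 than in both tissues, with the tissues within the threshold of each other, were 23 of 71 mitoribosomal genes as deposited (32.4%), where all genes gave 10.8%. This count depended on the scaling, with 15 (21.1%, against 12.1%) after quantile normalization, 14 (19.7%, against 11.9%) with upper quartiles made equal, 10 (14.1%, against 10.0%) on the genes above the floor and 8 (11.3%, against 12%) with array medians made equal. Mrpl10, Mrpl33, Mrpl40, Mrpl53 and Mrps27 were in it under all 5. As deposited the reverse held for Mrpl35 alone (1.41%, against 6.8%), and under the other scalings for 2 or 3 genes. Changing the scaling moved both comparisons with normal liver more than that of Ymac-1 with HCC. The number higher in Ymac-1 than in HCC was 27 as deposited (38.0%, against 14.7% of all genes). Under the other 4 scalings it lay between 23 (32.4%, against 13.5%) and 37 (52.1%, against 20.2%). Under all 5 scalings 23 genes passed (32.4%). The share of all genes passing under all 5 was not counted, and it cannot exceed 13.5%, the lowest under any of them. Among these 23 are Mrpl3, Mrpl10, Mrpl14, Mrpl20, Mrpl33, Mrpl40, Mrps6, Mrps12, Mrps18b, Mrps22 and Mrps36. Mrpl35 and Mrpl24 were lower under all 5, while Mrps31 left the threshold under 2 of them. Against normal liver, 11 genes (15.5%) were higher under all 5 scalings, among them Mrpl33, Mrpl3, Mrpl40, Mrps18b, Mrps6 and Mrps36. There too the share of all genes was not counted, and it cannot exceed 14.2%.

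**Figure D4:**
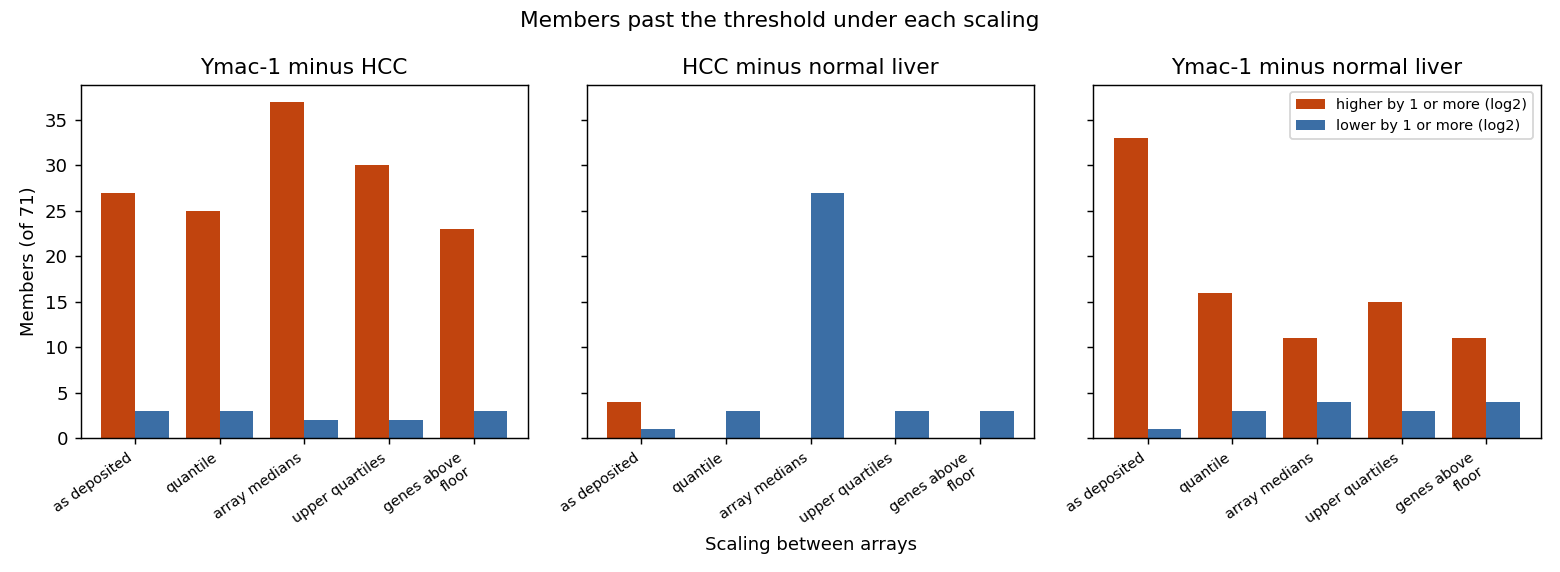
Number of mitoribosomal genes (of 71) higher or lower by a log2 difference of 1 or more, for each comparison and each of 5 scalings between arrays. For Ymac-1 minus HCC the higher genes number from 23 to 37, whereas for HCC minus normal liver they number 4 as deposited and 0 under the other scalings. The share of all genes higher, not drawn, ran from 13.5% to 20.2% for Ymac-1 minus HCC.

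In 8 of the 71 genes several probes were present. Both probes of Mrpl48 passed the threshold for Ymac-1 minus HCC, at 1.02 and 1.72. The brighter read 2011 in Ymac-1, 991 in HCC and 890 in normal liver. The other read 1128 in Ymac-1, 341 in HCC and 342 in normal liver. The brighter pair of Mrps10 probes gave 1.29 and 0.92 for Ymac-1 minus HCC, on either side of the threshold. For HCC minus normal liver the pair gave -0.09 and 0.61. The remaining Mrps10 probe read 32.3 in Ymac-1, 102 in HCC and 33.7 in normal liver, -1.03 for Ymac-1 minus HCC, and lay at or near the floor. The second probe of Mrpl1, Mrpl11, Mrpl17 and Mrpl41 lay under the floor on all arrays. The dimmer Mrpl51 probe read 154 in Ymac-1, 107 in HCC and 46.7 in normal liver. It gave at least 1.62 for Ymac-1 minus normal liver, against 0.68 for the probe used. The dimmer Mrpl57 probe, near the floor, read 61.2 in Ymac-1, 88.9 in HCC and 45.5 in normal liver. It gave -0.54 for Ymac-1 minus HCC, against 0.04 for the probe used. With the mean of all probes standing for a gene, 26 genes were higher in Ymac-1.

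Of 4 measured subunits known by other names, none passed the threshold between Ymac-1 and HCC as deposited, and 1 did with array medians made equal. Only Chchd1 and Ptcd3 were above the floor on both arrays. Chchd1 read 9595 in Ymac-1, 7969 in HCC and 4817 in normal liver, and Ptcd3 read 1586 in Ymac-1, 995 in HCC and 602 in normal liver. Their log2 differences over HCC were 0.27 and 0.67. Dap3 lay under the floor on all arrays and Gadd45gip1 under it in Ymac-1.

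The factors that work with the mitoribosome were mixed. Of 15 translation factor genes, 3 were higher and 1 was lower in Ymac-1 against HCC, with a median of 0.00 (up to 0.19 under other scalings). Tsfm, the exchange factor of the elongation factor Tu, read 3507 in Ymac-1, 949 in HCC and 652 in normal liver. Gfm1, the translocase, read 2170 in Ymac-1, 810 in HCC and 973 in normal liver. Mtif2, the initiation factor, read 222 in Ymac-1, 678 in HCC and 664 in normal liver, and Oxa1l, which inserts new chains into the inner membrane, read 465 in Ymac-1, 872 in HCC and 657 in normal liver. Tsfm and Gfm1 were thus higher in the cell line and Mtif2 was lower, with Oxa1l inside the threshold at -0.91. Tufm, the gene of elongation factor Tu itself, was also inside the threshold, at 0.36. Mtif3 lay under the floor on all arrays.

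Of 28 genes for mitoribosome assembly and rRNA modification, 5 were higher and 2 were lower in Ymac-1 against HCC, with a median of 0.31 (5 to 9 higher over the 5 scalings). The share higher as deposited, 17.9%, was near the 14.7% of all genes. Noa1, a GTPase of small subunit assembly, read 1255 in Ymac-1, 315 in HCC and 241 in normal liver, and Mrm2, an rRNA methyltransferase, read 360 in Ymac-1, 98.1 in HCC and 192 in normal liver. Ddx28, a helicase of large subunit assembly, read 504 in Ymac-1, 1206 in HCC and 727 in normal liver. Ngrn read 867 in Ymac-1, 1498 in HCC and 1108 in normal liver, inside the threshold. Mterf4, which guides an rRNA methyltransferase, read 171 in HCC and lay under the floor in Ymac-1. Assembly factors were therefore found on both sides.

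Of 20 genes that charge mitochondrial tRNAs, 5 were higher and 1 was lower in the cell line against HCC, with a median of 0.45 (5 to 10 higher over the 5 scalings). Qrsl1 and Gatb encode subunits of the same amidotransferase for glutamine tRNA, and their log2 differences were 1.67 and -1.21. Qrsl1 read 1696 in Ymac-1, 534 in HCC and 378 in normal liver. Gatb read 143 in Ymac-1, 333 in HCC and 308 in normal liver. Yars2 read 1079 in Ymac-1, 348 in HCC and 288 in normal liver. Fars2 had a log2 difference of -0.61.

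For mitochondrial DNA upkeep and transcription, 1 of 10 genes was higher (10.0%, against 14.7% of all genes) and 3 were lower in Ymac-1 against HCC. The median of -0.15 turned to 0.20 with array medians made equal. The 3 lower became 1 under that scaling, with 2 higher, and 1 with upper quartiles made equal. Tefm, the elongation factor of mitochondrial transcription, read 775 in Ymac-1, 341 in HCC and 361 in normal liver, and Twnk, the helicase, read 1101 in Ymac-1, 728 in HCC and 951 in normal liver. Polg, the DNA polymerase, read 136 in Ymac-1, 409 in HCC and 259 in normal liver, and its accessory subunit Polg2 read 154 in Ymac-1, 329 in HCC and 346 in normal liver. Both polymerase subunits thus read dimmer in the cell line than in either tissue.

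Among 9 regulators of mitochondrial biogenesis, 4 were higher (44.4%, against 14.7% of all genes) and 2 were lower in Ymac-1 against HCC as deposited. Over the 5 scalings 1 to 6 were higher and 1 or 2 lower. Myc read 1664 in Ymac-1 and 579 in HCC and lay under the floor in normal liver, and Esrra read 477 in Ymac-1, 232 in HCC and 184 in normal liver. Ppargc1b, a coactivator, read 415 in HCC and 183 in normal liver, and lay just under the floor in Ymac-1, at least 8.30-fold below HCC. Of 16 genes for mitochondrial mass and import, 4 were higher and none was lower in Ymac-1 against HCC, with a median of 0.63 (4 to 8 higher over the 5 scalings). As deposited they included the chaperonin partner Hspe1 (2857 in Ymac-1, 633 in HCC and 499 in normal liver) and citrate synthase, Cs (9886 in Ymac-1, 3441 in HCC and 1789 in normal liver). Phb and Phb2, the prohibitins, differed by 0.08 and -0.01.

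The respiratory chain and ATP synthase, whose core subunits the mitoribosome makes, are represented here by their nuclear genes. Of 65, 6 were higher (9.23%, against 14.7% of all genes) and 3 were lower in the cell line against HCC. Their median was 0.15 (0.06 to 0.61 over the 5 scalings). The mitoribosomal genes gave 27 and 3 of 71 and a median of 0.66. With array medians made equal 18 of the 65 were higher and none was lower, against 37 and 2 of the 71. Ndufab1 read 443 in Ymac-1, 118 in HCC and 195 in normal liver, and Ndufb3 read 3242 in Ymac-1, 1079 in HCC and 1117 in normal liver. Ndufa6 read 8755 in Ymac-1, 24162 in HCC and 14367 in normal liver, and Atp5a1 read 1316 in Ymac-1, 3245 in HCC and 2899 in normal liver. The spread (SD over genes) was 0.66 in this list and 0.87 in the mitoribosomal genes.

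Of 40 cytosolic ribosomal protein genes measured, 16 were higher and 4 were lower in Ymac-1 against HCC. Their median of 0.65 lay next to that of the mitoribosomal genes, with a wider spread (SD 1.56 over genes). Both values rest partly on readings at the floor, where 13 of the 40 lay in HCC. Rpl8, the furthest from 0, read 2986 in HCC and 5092 in normal liver and lay under the floor in Ymac-1. The 26 genes above the floor on both arrays had a median of 0.97 and an SD of 1.31. Rpl29 read 2702 in Ymac-1, 198 in HCC and 135 in normal liver, and Rpl24 read 508 in Ymac-1 and 58.9 in HCC and lay under the floor in normal liver. Rpl38 read 1078 in Ymac-1, 3059 in HCC and 1266 in normal liver, and Rpl22 read 138 in Ymac-1, 389 in HCC and 469 in normal liver. Cytosolic ribosomal protein genes have many processed pseudogenes, and which copies a probe reads was not known here. With 1 array per condition none of these differences between lists could be tested.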

How the data were processed

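RNA of 3 samples was measured on 1 single-colour array each. From 1 µg of total RNA the authors made Cy5-labelled antisense RNA by amplification. The deposited values are linear intensities from which the authors had subtracted background, so that some lie below 0. Details of array scanning and scaling were not given in the sources used here. Their scaling was left as deposited, every intensity under 50 was raised to 50, and log2 was taken. Gene names came from the platform annotation, in which 21876 probes have 1 symbol, 0 several and 4547 none. By Entrez ID, 71 of 71 members matched the RefSeq gene table (GRCm38.p6), which also supplied promoters.

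The study's methods pair the ratio with a P value, which 1 array per condition cannot give. Each list was described by counts and medians beside those of all genes. All members may be named, with sentences of their own for the 6 highest and 6 lowest of each comparison, those against the main direction and those whose probes disagree. Other lists are named by the 2 highest and 2 lowest of Ymac-1 minus HCC above the floor, and the other named genes were chosen after their values were seen, as were the genes whose promoters are printed. Members, lists and rules were chosen with earlier results of these data known. The counting was tested on simulated data. Alternatives were other thresholds, floors and scalings, the mean of probes and a filter on dim genes. Tools were numpy 2.4.6, pandas 2.3.3 and matplotlib 3.10.9, under Python 3.11.15.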

Additional observations from a re-analysis of the deposited data

How the results depend on the processing

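With 1 array per condition the spread between samples is unknown, and a probe near the floor carries no difference. No paired analysis was possible because each group had 1 array. For Ymac-1 minus HCC the 27 higher and 3 lower genes stayed within 1.5 times of these counts under most alternatives. A threshold of 1.5 left 9 higher, a threshold of 0.5 gave 6 lower and a floor of 20 gave 5 lower. Shares of all genes were not counted at the other thresholds and floors, in this comparison or those below. The median of 0.66 became 0.52 with a floor of 100, 1.14 with array medians made equal, 0.81 with upper quartiles made equal and 0.52 with the mean of probes.

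For HCC minus normal liver, the 4 higher and 1 lower became 21 higher at a threshold of 0.5, and 0 higher and 0 lower at a threshold of 1.5. There were 0 higher and 3 lower after quantile normalization, 0 and 27 with array medians made equal, 0 and 3 with upper quartiles made equal, and 0 and 3 with scaling to the genes that exceeded the floor on every array, an alternative chosen after seeing the data. The median of 0.36 turned to -0.21, -0.86, -0.38 and -0.30 under these 4 scalings. In all 4 the HCC array is lowered relative to normal liver.

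For Ymac-1 minus normal liver, the 33 higher and 1 lower became 50 and 3 at a threshold of 0.5, and 17 higher at 1.5. They were 16 and 3 after quantile normalization, 11 and 4 with array medians made equal, 15 and 3 with upper quartiles made equal, and 11 and 4 with scaling to the genes above the floor. The shares of all genes higher under these 4 scalings were 16.1%, 14.8%, 15.9% and 14.2%. The median of 0.94 became 0.32, 0.14, 0.28 and 0.14 under these 4 scalings, and 1.14 over the genes above the floor on both arrays. The count of genes higher in Ymac-1 alone was recomputed under the other scalings after seeing the data. The cause of the differences between scalings was not tested.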
